A study of Mus musculus with 3 samples.

Results

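Open chromatin of the PDGFB-NLS glioma library was set against that of the PDGFB-WT glioma library, region by region, over the DNA that was called open in both. Overlapping peaks of the 2 libraries were merged into 133513 regions, and the 50587 regions (37.9%) that held a peak of each list were kept as shared regions. They took in 88.2% of the PDGFB-WT peaks and 40.1% of the PDGFB-NLS peaks. Of the shared regions, 26655 reached a mean of 10 CPM (counts scaled to 1000000 within the shared regions of a library) and were compared, and 23932 lay below it. The series holds 3 single-cell ATAC libraries of mouse glioma, made by in utero electroporation with the piggyBac transposon. One overexpresses PDGFB-WT, one PDGFB-NLS, and the remaining library is labelled Control. Each group is 1 library. The meaning of NLS, the promoter of the transgene, the age and number of the mice and any pooling are not stated by the labels. Such tissue also holds host brain and immune cells, and counts were summed over all barcodes with at least 200 counts. With 1 library a side there is no replicate and no test, and the interval beside a ratio is an exact 95% interval that covers counting error only. Intervals of medians are taken over regions and those of barcode shares over barcodes. PCR copies and the spread between animals are outside them all. Doublets were not called or removed, since counts were summed over a library.

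In ATAC-seq, the transposase Tn5 cuts DNA that is not wrapped tightly in nucleosomes, so counts pile up at active promoters and enhancers. Promoters of housekeeping genes are open in nearly every cell type, whereas enhancers, which often lie in introns or far from any gene, differ from one cell type to the next. PDGFB is the ligand of the receptor tyrosine kinases PDGFRA and PDGFRB. PDGFRA marks oligodendrocyte precursor cells (OPC), for which PDGF is a mitogen, and forced PDGFB expression is a common way to induce glioma in the mouse brain.

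The promoter sequences of 5 genes are shown because their start regions had some of the highest or lowest ratios between the libraries and because base composition differed between such promoters. They come from RefSeq on GRCm38.p6, the assembly of mm10, run 5′ to 3′ on the strand of the gene and hold 250 bases before the start and 50 after it. Capitals mark the SP/KLF motif GGGCGG or its reverse complement CCGCCC. Glo1 (chr17:30612610-30612909, minus strand), Tgif2 (chr2:156839757-156840056, plus strand) and Etnk2 (chr1:133363322-133363621, plus strand) were higher in PDGFB-NLS. Mfsd8 (chr3:40846805-40847104, minus strand) and Fam107a (chr14:8309728-8310027, minus strand) were lower.
Glo1: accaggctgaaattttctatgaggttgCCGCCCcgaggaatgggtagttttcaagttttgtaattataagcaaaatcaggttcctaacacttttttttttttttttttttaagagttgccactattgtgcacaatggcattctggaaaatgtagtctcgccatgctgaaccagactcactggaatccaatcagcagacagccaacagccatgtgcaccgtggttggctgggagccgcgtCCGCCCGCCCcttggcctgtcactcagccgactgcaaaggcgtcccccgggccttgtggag
Tgif2: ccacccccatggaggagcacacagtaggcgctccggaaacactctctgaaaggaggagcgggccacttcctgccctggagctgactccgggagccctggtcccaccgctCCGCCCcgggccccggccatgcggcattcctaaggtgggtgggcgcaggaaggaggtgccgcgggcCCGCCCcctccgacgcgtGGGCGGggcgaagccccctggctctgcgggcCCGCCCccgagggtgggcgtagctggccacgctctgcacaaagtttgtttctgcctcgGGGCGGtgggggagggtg
Etnk2: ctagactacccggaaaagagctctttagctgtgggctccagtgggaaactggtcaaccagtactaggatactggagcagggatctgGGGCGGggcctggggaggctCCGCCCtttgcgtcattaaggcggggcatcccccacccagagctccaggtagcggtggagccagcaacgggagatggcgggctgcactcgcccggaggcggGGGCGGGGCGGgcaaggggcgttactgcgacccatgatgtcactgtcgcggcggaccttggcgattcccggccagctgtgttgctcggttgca
Mfsd8: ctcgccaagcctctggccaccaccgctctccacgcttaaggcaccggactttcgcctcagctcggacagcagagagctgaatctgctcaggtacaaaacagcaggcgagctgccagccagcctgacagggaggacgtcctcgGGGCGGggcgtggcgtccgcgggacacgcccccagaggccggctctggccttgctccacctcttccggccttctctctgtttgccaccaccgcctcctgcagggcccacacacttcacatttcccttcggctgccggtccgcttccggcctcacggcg
Fam107a: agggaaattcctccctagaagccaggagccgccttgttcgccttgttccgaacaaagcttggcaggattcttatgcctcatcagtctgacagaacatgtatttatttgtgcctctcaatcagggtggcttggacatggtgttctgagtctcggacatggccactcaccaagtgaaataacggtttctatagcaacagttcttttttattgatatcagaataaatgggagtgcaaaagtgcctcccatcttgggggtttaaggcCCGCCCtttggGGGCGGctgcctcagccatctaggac

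Depth differed widely. PDGFB-NLS gave 10996 barcodes with a median of 2767.5 counts, and PDGFB-WT gave 7441 barcodes with a median of 821 counts after 70 were left out. Shared regions held 24811347 counts (79.6% of its own) in PDGFB-NLS and 6876128 (98.1%) in PDGFB-WT. PDGFB-NLS was therefore thinned at random, fragment by fragment, to 6876266 counts, 27.7% of its total. A region had to be called in the shallow PDGFB-WT library to be shared, so sites open in PDGFB-NLS and scarcely in PDGFB-WT are outside the comparison. This bears on every count of higher against lower regions given here, and on the median ratios by class, distance, gene length and list. Its part in those medians was not tested. Of the shared regions, 47578 also overlapped a peak of Control, whose CPM is given beside the others where it has one. The 2 PDGFB libraries had 118 barcode sequences in common.

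Values are log2 ratios of PDGFB-NLS to PDGFB-WT, less the median over compared regions (0.06). At 2-fold, 404 regions were higher in PDGFB-NLS (1.52% of those compared) and 959 were lower (3.6%). If the median is not taken off, higher regions make up 39.4% of all called regions in place of 29.6%. Gene-start regions lay within 1 kb of a start in the RefSeq promoter table or, for 2180 of 11988, within 1 kb of either end of a gene which that table lacks. They were nearly balanced, with 75 higher (0.626%) and 63 lower (0.526%). Gene-body regions, deeper inside a gene, counted 180 higher (2.24%) and 471 lower (5.86%) of 8036. Intergenic regions counted 149 higher (2.25%) and 425 lower (6.41%) of 6631. The median ratio was 0.08 at gene starts (interval of the median over regions 0.07 to 0.08), -0.11 in gene bodies (-0.12 to -0.10) and -0.12 between genes (-0.13 to -0.10). Without thinning, 314 regions were higher (1.18%) and 904 lower (3.39%), and 254 and 654 of these had also been called after thinning.

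**Figure D1:**
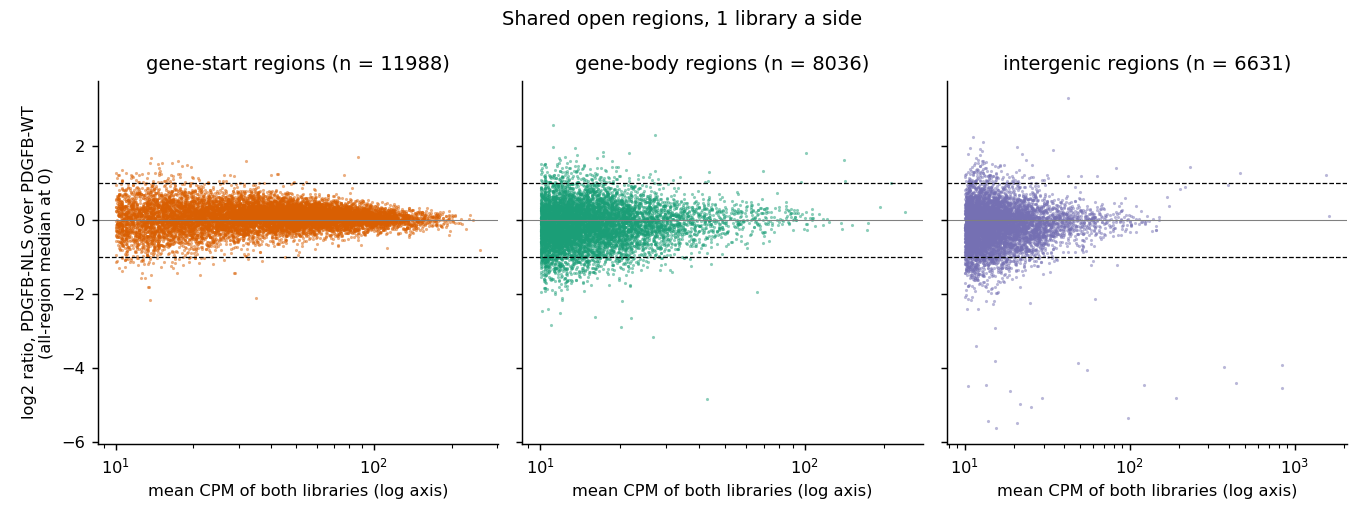
Log2 ratio of PDGFB-NLS to PDGFB-WT for each of the 26655 compared regions (points) against the mean CPM of both libraries on a log axis, in 3 panels by class, with dashed lines at 2-fold. Points past the lines are mostly of low CPM, and a small group of intergenic points lies below -4.

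Gene starts took 60.3% of the counts in PDGFB-NLS and 55.3% in PDGFB-WT. Control, which entered no ratio, stood at 61.9%. Gene bodies held 21.1%, 23.5% and 19.9% in the same order, and intergenic regions 18.6%, 21.2% and 18.2%. PDGFB-WT thus had the lowest gene-start share of the 3 libraries. Within PDGFB-WT the gene-start share was 54.5% in barcodes under 1000 counts and 55.7% in deeper ones. Within PDGFB-NLS it was 64.2% and 60.2%.

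The ratio went down step by step with distance from a gene start. Its median was 0.08 within 1 kb, -0.02 from 1 to 10 kb, -0.10 from 10 to 50 kb, -0.25 from 50 to 200 kb (3094 regions) and -0.48 beyond 200 kb (711 regions). The share of regions at least 2-fold lower in PDGFB-NLS went from 0.526% through 3.21%, 4.90% and 9.76% to 19.7% in the same order. Regions beyond 200 kb held 2.0% of PDGFB-NLS counts, 3.29% of PDGFB-WT counts and 1.68% of Control counts. These shares include runs of very low regions at commonly masked places, described further on. On chromosome 2 such a run had 4464 CPM in PDGFB-WT and 241 in PDGFB-NLS, and on chromosome 9 one had 235 and 6.84. Distal regions have fewer counts than gene starts, and the median ratio also went from -0.14 in the 20% of regions with the lowest mean CPM to 0.07 in the 20% with the highest. Among regions in the upper 50% by CPM, the medians over distance were 0.08, -0.00, -0.09, -0.21 and -0.42, the same order. Over 14 alternative settings the median within 1 kb ran from 0.03 to 0.24 and that beyond 200 kb from -0.62 to -0.42.

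The same order was seen with gene length. Gene-body regions had a median ratio of -0.03 in genes under 50 kb, -0.08 from 50 to 100 kb, -0.14 from 100 to 200 kb, -0.21 from 200 to 500 kb and -0.41 in genes longer than 500 kb. In these longest genes, 77 of 480 body regions (16.0%) were at least 2-fold lower and 6 were higher. Their 138 start regions had a median of -0.09, against 0.08 at the starts of genes under 50 kb. Many of the longest genes encode proteins of neural adhesion and synapses, whose lists are given further on.

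**Figure D2:**
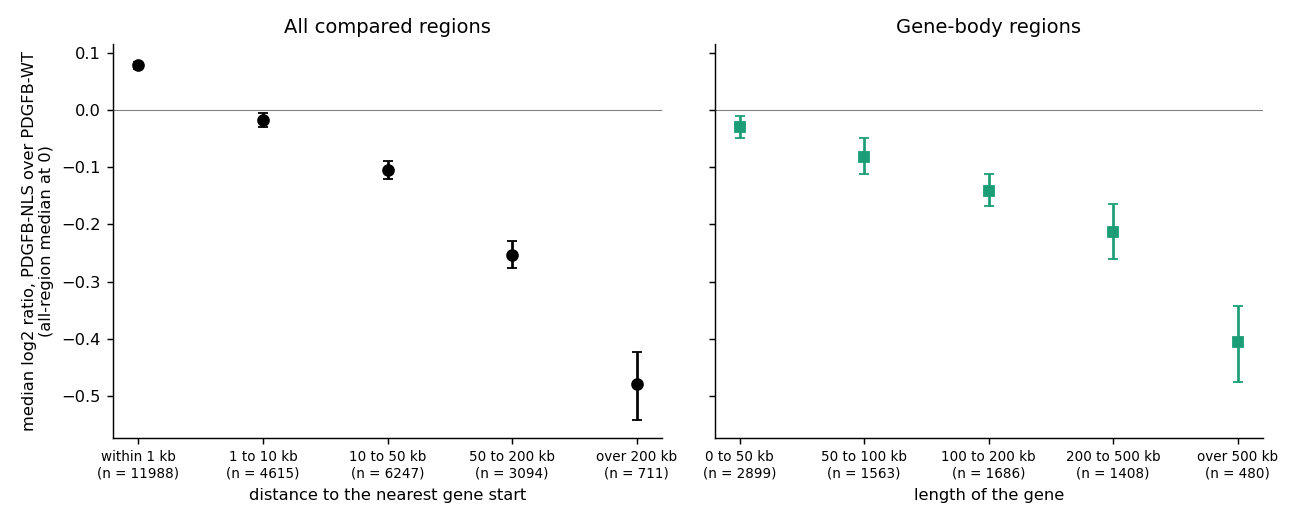
Median log2 ratio of PDGFB-NLS to PDGFB-WT (points) with the 95% interval of the median over regions (bars), for all compared regions by distance to the nearest gene start (left) and for gene-body regions by length of the gene (right). Medians go from 0.08 within 1 kb to -0.48 beyond 200 kb, and from -0.03 in the shortest genes to -0.41 in the longest.

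To describe distal regions by gene, all shared regions in a gene, or nearest to it within 50 kb, were summed as its locus. Of 12981 loci with a mean of at least 20 CPM, 239 were at least 1.5-fold higher in PDGFB-NLS (1.84%) and 564 were lower (4.34%). Among the 6319 loci of at least 3 regions, 54 were higher (0.855%) and 443 lower (7.01%). The higher share of called loci was 29.8%, and it was 45.5% with the region median left in. The median of all loci was 0.00. Fewer cells of a type and lower accessibility in each cell cannot be told apart in such sums.

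Loci of astrocyte markers were lower in PDGFB-NLS as a list. All 17 compared of 18 had a ratio under 0, and the median was -0.53, against 0.00 over all loci. Of the 17, 5 were at least 1.5-fold lower, beside 4.34% of all loci and 7.01% of those with at least 3 regions. Astrocytes take up glutamate and buffer water and ions. Aqp4, their water channel, had 18 CPM in PDGFB-NLS, 38.5 in PDGFB-WT and 11.4 in Control, a ratio of -1.16 (-1.62 to -0.73). Gjb6, the gap junction protein connexin 30, had 23.7 CPM in PDGFB-NLS and 57.7 in PDGFB-WT (-1.34, -1.76 to -1.02). In that locus a region 6.76 kb from the gene had 71 counts after thinning against 160 (-1.23, or -0.69 without thinning). In barcodes of at least 1000 counts the Gjb6 locus was at -0.72. The neurotensin receptor gene Ntsr2 was at -0.90 (-1.19 to -0.61). The glutamate transporter genes Slc1a2 and Slc1a3 were at -0.57 (-0.81 to -0.31) and -0.47 (-0.62 to -0.32), inside the 1.5-fold line of 0.585 on the log2 scale. Of 9 compared regions of Slc1a3, 8 were under 0. Gfap, the intermediate filament gene, had 63.1 CPM in PDGFB-NLS and 72.3 in PDGFB-WT (-0.26, -0.52 to 0.01). S100b, the highest of the list, was at -0.08. The summed level of the list was 1246 CPM in PDGFB-NLS and 1645 in PDGFB-WT.

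OPC marker loci had a median of -0.26, with 16 of 18 under 0. Of the 18, 4 were at least 1.5-fold lower, beside 4.34% of all loci and 7.01% of those with at least 3 regions. None was higher. The sialidase gene Neu4 was lowest, with 14.1 CPM in PDGFB-NLS and 27.2 in PDGFB-WT (-1.01, -1.49 to -0.47). Tnr, the matrix protein tenascin-R, had 160 CPM and 251 CPM (-0.71, -0.86 to -0.56), and all 7 of its compared regions were under 0. Ptprz1, a receptor phosphatase of OPC and glioma cells, had 56.6 CPM in PDGFB-NLS, 86.1 in PDGFB-WT and 24.7 in Control (-0.67, -0.97 to -0.44). The lineage factor gene Olig2 had 104 CPM, 148 CPM and 86.0 CPM in the same libraries (-0.57, -0.77 to -0.39). Its start region stood level, at 27.3 CPM in PDGFB-NLS, 26.6 in PDGFB-WT and 27.3 in Control (-0.02). The difference lay at distal regions, above all at one 33.3 kb away with 18.5, 47.1 and 16.0 CPM (-1.41, -1.76 to -0.93). Sox10, a further lineage factor, was at 0.13 (-0.17 to 0.37), and Ccnd1, the cell cycle gene cyclin D1, at 0.04. All 18 loci, with Pdgfra, Olig2 and Sox10 among them, reached the minimum level. The list summed to 1641 CPM in PDGFB-NLS and 1982 in PDGFB-WT. Both the astrocyte and the OPC list thus moved with the comparison, and the part of cell makeup in the other results was not tested.

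Oligodendrocyte marker loci lay slightly the other way, with a median of 0.07 over 11 loci. Their 10 start regions had a median of 0.40, against 0.08 over all gene starts. Mog, a myelin glycoprotein, had 81.7 CPM in PDGFB-NLS, 48.3 in PDGFB-WT and 72.6 in Control (0.70, 0.41 to 0.97). It was the 1 locus of the list past 1.5-fold, beside 1.84% of all loci that were higher. Where 1 peak of each list had to overlap by 50%, Mog was at 0.46. The myelin enzyme gene Cnp was at 0.48 (0.23 to 0.78), and Opalin was lowest at -0.16. Neural progenitor loci had a median of -0.18 over 15, and Nes (0.48, 0.11 to 0.86) and Dlx2 (0.50, 0.03 to 1.02) were highest.

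Microglia or macrophage markers had a median of -0.09 over 17 loci. The mannose receptor gene Mrc1 (-0.60, -0.91 to -0.29) passed 1.5-fold, and Cx3cr1 (0.35) and Ikzf1 (0.37) were highest. All 20 of its genes had a shared region, and their sum was 1011 CPM in PDGFB-NLS against 1024 in PDGFB-WT. Endothelial markers had a median of -0.00 over 9 loci, and 2 were at least 1.5-fold higher, beside 1.84% of all loci. They were Eng, the TGF-beta co-receptor endoglin, at 1.09 (0.62 to 1.51), and the VEGF receptor gene Flt1 at 0.59 (0.21 to 0.93), or 0.39 without the 1% deepest barcodes. Mfsd2a and Erg were lowest at -0.47 and -0.40. Excitatory neuron loci had a median of 0.19 (9 loci, Fezf2 lowest at -0.70 and past 1.5-fold, Slc17a7 highest at 0.42). Inhibitory neuron loci had a median of -0.43 over 7. Of these, 3 were at least 1.5-fold lower, beside 4.34% of all loci, with Adarb2 (-0.82) and Nxph1 (-0.70) among them. Only Sp9 (0.93) was at least 1.5-fold higher, beside 1.84% of all loci. Sp9 was at 0.15 in barcodes of at least 1000 counts and Nxph1 at -0.39 without thinning. Mural and ependymal markers (6 loci each) had medians of -0.14 and -0.10 with none past 1.5-fold, and 4 lymphocyte loci were too few for a median.

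**Figure D3:**
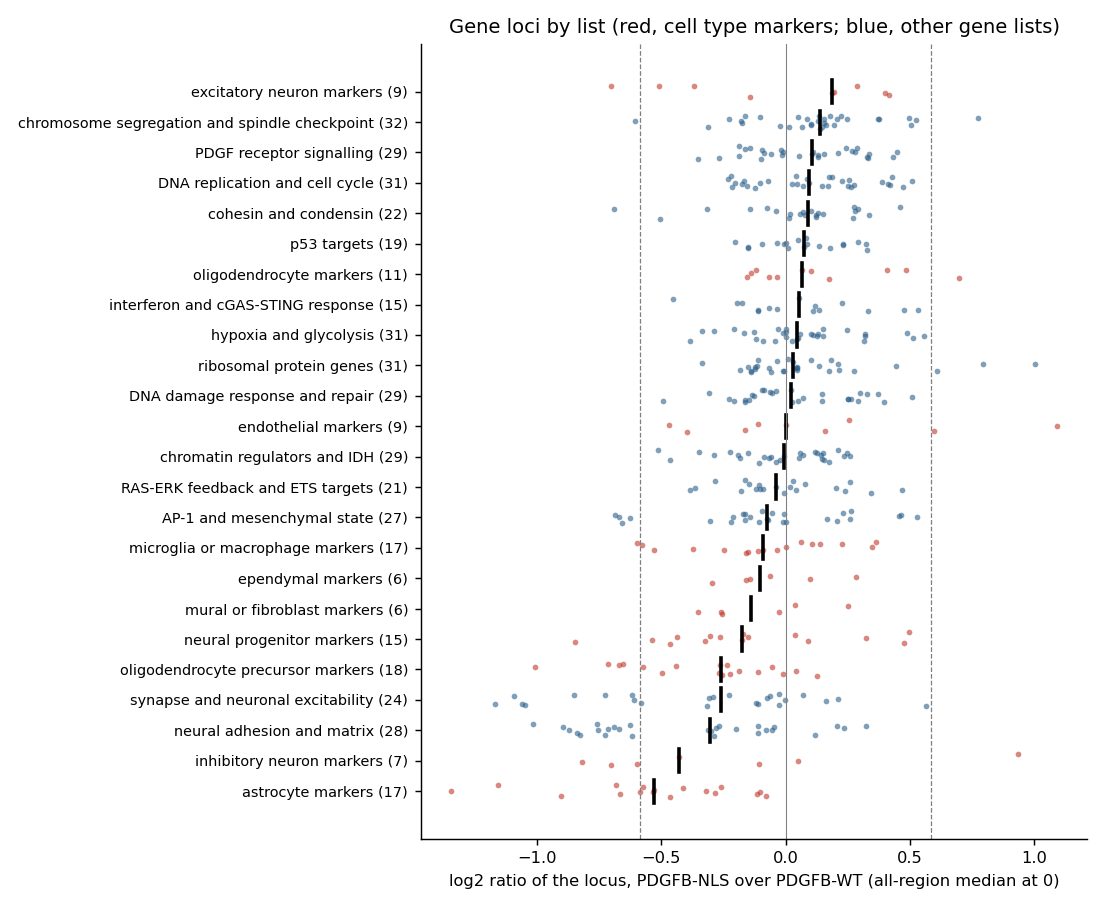
Log2 ratio of PDGFB-NLS to PDGFB-WT for each compared locus (points, jittered vertically) of each list with at least 5 loci, number in brackets, with the list median (black line) and dashed lines at 1.5-fold. Astrocyte loci lie wholly under 0 around a median of -0.53, and adhesion and synapse loci spread to the left of 0.

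Genes of neural adhesion and matrix were lower in PDGFB-NLS at 13 of 28 loci, and none was higher (median -0.31). Beside this, 4.34% of all loci and 7.01% of those with at least 3 regions were lower. Tnr, Ptprz1, Vcan and Bcan are in this list and in the OPC list alike. Ntm, the cell adhesion protein neurotrimin, had 128 CPM in PDGFB-NLS and 227 in PDGFB-WT (-0.89, -1.07 to -0.73). Of its 9 compared regions, 8 were under 0 and 3 were at least 2-fold lower, while its start region stood at 0.09. The guidance cue gene Sema3a was lowest, at 23.0 CPM against 44.5 and 17.7 in Control (-1.01, -1.45 to -0.64, or -0.62 in barcodes of at least 1000 counts). Ctnnd2, or delta-catenin, was at -0.87 (-1.04 to -0.73). The node of Ranvier gene Nfasc (0.24) and the plexin gene Plxnb3 (0.32) were highest.

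Synapse and excitability genes were lower at 8 of 24 loci, beside 4.34% of all loci and 7.01% of those with at least 3 regions, and higher at none (median -0.26). Csmd1 had 97.3 CPM in PDGFB-NLS and 209 in PDGFB-WT (-1.17, -1.37 to -1.0). The neurexin gene Nrxn3, a presynaptic adhesion protein, had 76.1 and 155 CPM (-1.09, -1.32 to -0.89). Rbfox1, a neuronal splicing factor, was at -1.05 and the glutamate receptor gene Grm5 at -1.06. Over the list, 37 gene-body regions had a median of -0.44 while 19 start regions had one of -0.05. In the adhesion list the medians were -0.44 for 66 body regions and -0.22 for 28 starts. All gene-body regions had a median of -0.11, and those in genes longer than 500 kb one of -0.41. At least 2-fold lower were 5 of the 37 synapse and 13 of the 66 adhesion body regions. Beside this stood 5.86% of all gene-body regions and 16.0% of those in genes longer than 500 kb. The part of gene length in these lists was not tested. Highest in the synapse list were Grin1 (0.56, 0.20 to 1.06) and Vamp2 (0.21).

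Of 13943 genes with a compared region, 868 had at least 5 such regions. In 11 genes at least 3 regions were 2-fold lower and in 1 at least 3 were 2-fold higher, a grouping chosen after the values were seen. Each of these genes had at least 5 compared regions. Over all compared regions, 3.6% were 2-fold lower and 1.52% higher. The 11 were Cwc22, Dscam, Msi2, Rora, Zbtb20, Alk, Arhgap26, Grm3, Myt1l, Ntm and Shcbp1l. Without thinning, Dscam, Myt1l and Por each kept 2 such regions and the others at least 3. Msi2, an RNA-binding protein of neural stem cells, had 4 of 18 regions lower, and 17 of 18 were under 0. Its start lay at 0.23. Zbtb20, a factor of astrocyte formation, had 4 of 10 lower, as had the nuclear receptor gene Rora. Dscam, a cell adhesion gene, was unlike these in that its start region was as low (-1.04, -1.81 to -0.44) as the lower body regions (-1.02 to -1.11). All 6 compared regions of Myt1l, a neuronal zinc finger factor, were under 0, the lowest at 6.98 CPM against 22 and 2.82 in Control (-1.71, -2.38 to -1.03). The 1 gene with 3 higher regions was Por, the electron donor of cytochrome P450 enzymes. Its intronic regions had 14.5, 20.4 and 16.0 CPM in PDGFB-NLS against 6.84, 9.02 and 6.54 in PDGFB-WT, and its start stood at 0.16.

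**Figure D4:**
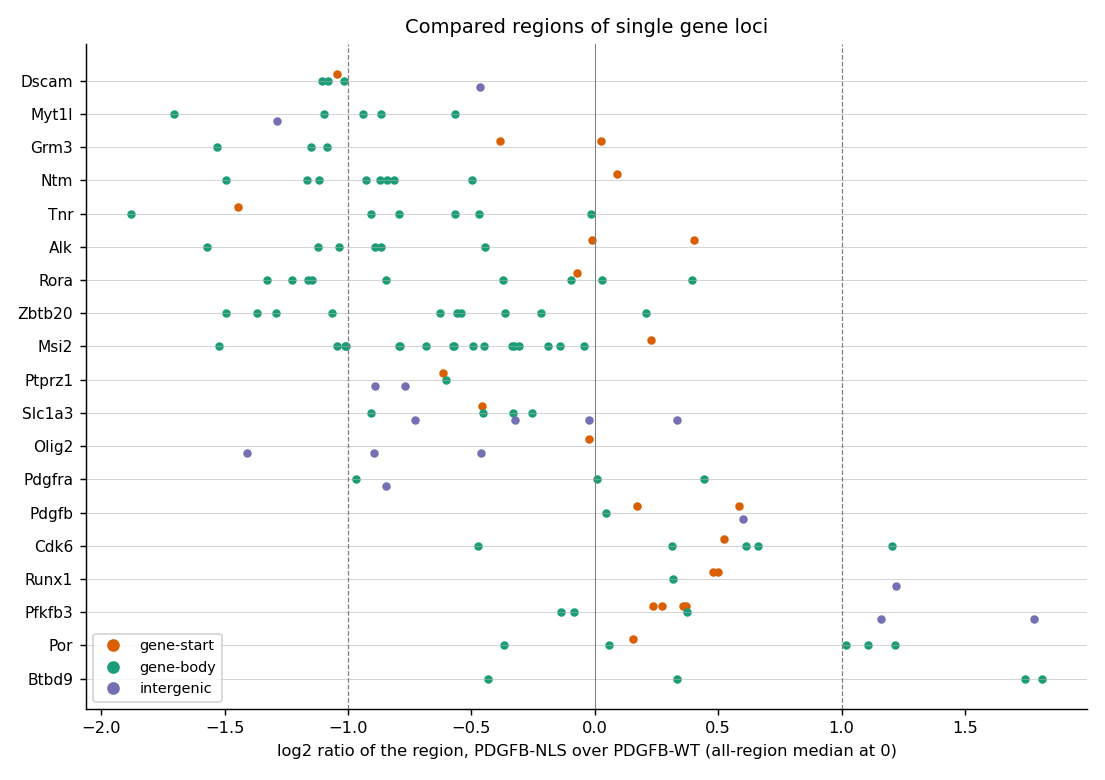
Log2 ratio of PDGFB-NLS to PDGFB-WT of each compared region (points, colored by class) in 19 gene loci, with dashed lines at 2-fold. Body regions of Grm3, Ntm and Msi2 lie left of their start regions, whereas the start of Dscam lies at -1.04 among its body regions.

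Loci of PDGF signalling differed little. None of 29 compared loci of 30 passed 1.5-fold in either direction, and the median was 0.11. Of the ligands, Pdgfb had 69.8 CPM in PDGFB-NLS, 52.9 in PDGFB-WT and 79.7 in Control (0.34, 0.06 to 0.61), with all 4 compared regions above 0. Pdgfc was at -0.19 (-0.60 to 0.26). Of the receptors, Pdgfra had 91.0 CPM in PDGFB-NLS and 105 in PDGFB-WT (-0.27, -0.49 to -0.06). Within it, an intronic region 10.8 kb from the start had 12.9, 24.3 and 2.90 CPM in PDGFB-NLS, PDGFB-WT and Control (-0.97, -1.48 to -0.40), while one at 3.50 kb had 27.9, 19.6 and 20.6 (0.44, -0.06 to 0.84). Pdgfrb, the receptor gene of mural cells, was at -0.35 (-0.70 to 0.03). Downstream, the kinase genes Braf (0.45, 0.20 to 0.75) and Src (0.43, 0.18 to 0.61) were highest. RAS-ERK feedback and ETS target loci had a median of -0.04 over 21, again with none past 1.5-fold. The phosphatase gene Dusp5 was highest at 0.47, and the early response gene Egr1 (-0.39) and the RAS-ERK inhibitor gene Spry2 (-0.37) were lowest.

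AP-1 and mesenchymal genes, which encode early response factors and matrix proteins, had a median of -0.07 over 27 loci, 4 of them at least 1.5-fold lower, beside 4.34% of all loci. These were Ccn2 (-0.69), Tgfb2 (-0.67), Chil1 (-0.66) and Tnc (-0.62), of which Ccn2 was at -0.42 with peaks overlapping by 50%. Distal regions of the list went the other way. Of 38 intergenic regions, 6 were at least 2-fold higher, beside 2.25% of all intergenic regions, and 1 was lower. They lay near Atf3, Batf, Cd44, Fosb, Runx1 and Tgfb1. Without thinning, those near Cd44 (0.76) and Tgfb1 (0.99) were inside 2-fold. The region 46.9 kb from Atf3, a stress-induced AP-1 partner, had 156 counts in thinned PDGFB-NLS and 54 in PDGFB-WT (1.46, 0.80 to 2.09). The region 6.08 kb from the AP-1 gene Fosb had 409 and 173 counts (1.18, 0.81 to 1.55). For Runx1, a hematopoietic and mesenchymal factor, all 4 compared regions were above 0, with the one at 40.9 kb at 19.9 CPM, 8.14 CPM and 20.6 CPM in PDGFB-NLS, PDGFB-WT and Control (1.22, 0.53 to 1.83).

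Hypoxia and glycolysis loci had a median of 0.05 over 31, with none past 1.5-fold. Their 40 start regions had a median of 0.12, beside 0.08 over all starts, whereas their body and intergenic regions were at -0.08 and -0.13. The mitophagy gene Bnip3 (0.55, 0.30 to 0.84) and the glycolytic gene Pgk1 (0.51, 0.17 to 0.82) were highest, and the collagen prolyl hydroxylase gene P4ha2 (-0.38) and the oxygen sensor gene Egln1 (-0.33) were lowest. Around Pfkfb3, which makes an activator of glycolysis, 2 distal regions were at least 2-fold higher, at 41.2 kb (34.6, 9.60 and 28.3 CPM in PDGFB-NLS, PDGFB-WT and Control; 1.78, 1.21 to 2.37) and 28.9 kb (1.16). Interferon loci had a median of 0.05 over 15 with none past 1.5-fold, from Ifit2 (-0.45) to Tap1 (0.53).

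The series title links PDGFB and mutant IDH to chromosome instability. Loci of chromosome segregation and the spindle checkpoint had a median of 0.14, with 24 of 32 above 0. At 1.5-fold, 1 was higher and 1 lower, beside 1.84% and 4.34% of all loci. Many of these genes have a start region as their only shared region, and gene starts as a class stood at 0.08. Bub1, a checkpoint kinase, had 44.5 CPM in PDGFB-NLS, 24.9 in PDGFB-WT and 40.3 in Control (0.77, 0.39 to 1.17, or 0.43 in a second draw of the thinning). Nuf2, of the kinetochore, was lower at 114, 166 and 77.8 CPM (-0.60, -0.80 to -0.43), where a region 11.9 kb away was at -1.05 (-1.45 to -0.67). Among cohesin and condensin genes (median 0.09 over 22), the condensin subunit gene Ncapd3 was lower at 57.0, 88.1 and 55.5 CPM (-0.69, -0.86 to -0.36), but at 0.05 per kb of own peak length. Rad21, a cohesin subunit, was at -0.51 and the cohesin release gene Wapl at 0.46. Loci of DNA damage repair (0.02, 29 loci), p53 targets (0.07, 19), replication and cell cycle (0.09, 31) and chromatin regulators with IDH (-0.01, 29) had none past 1.5-fold. Within them, Msh6 (0.51), Top2a (0.51), Cdkn2a (0.47, 0.02 to 0.73) and Cdkn1a (0.33) were among the highest, and Kmt2a (-0.51), Xrcc5 (-0.49) and Idh2 (-0.46, -0.67 to -0.28) among the lowest. Idh1 stood at 0.15 (0.01 to 0.32), with its 3 compared regions above 0. Of 5 compared regions of Idh2, 2 were at least 2-fold lower, the lowest at -1.29. The other of these, a gene-start region (-1.24), was at -0.97 without thinning, inside 2-fold. Ribosomal protein loci had a median of 0.03, and 3 of 31 were at least 1.5-fold higher, beside 1.84% of all loci. They were Rpl7 (1.0, but 0.13 per kb of own peak length), Rpl4 (0.79) and Rpl30 (0.61), and the 1 region of Rpl7 overlaps the neighboring gene Rdh10.

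Single regions stood out by more than any list. Those in this and the next 2 paragraphs were ranked among regions with a mean of at least 20 CPM. The highest gene-start region was that of Glo1, which detoxifies methylglyoxal (chr17:30612175-30613062), at 134 CPM in PDGFB-NLS, 39.8 in PDGFB-WT and 148 in Control (1.69, 1.40 to 1.95). It did not stand alone: inside the neighboring gene Btbd9, a region 5.80 kb from a start (chr17:30575835-30576819) had 159, 43.3 and 165 CPM (1.81, 1.55 to 2.07), and a region in Dnah8 had 19.2, 5.67 and 25 CPM (1.68, 0.95 to 2.48). PDGFB-NLS lay near Control at these regions, and PDGFB-WT lay low. Other regions of the same megabase went the other way, such as 2 in Zfand3 (-1.42 and -0.68) and 1 in Btbd9 (-0.43). The ones named lay at or before position 30468563. Past it, a further region in Btbd9 (1.74) and one 1.49 kb from Glo1 (0.74) were above 0 too. Tgif2, a repressor in TGF-beta signalling (chr2:156839621-156841213), had 48.4, 15.4 and 42.6 CPM (1.58, 1.05 to 1.94, or 1.04 per kb of own peak length). Etnk2, an ethanolamine kinase, had 59.9, 24.3 and 46.1 CPM (1.24, 0.87 to 1.61). Il3ra, an interleukin receptor subunit, was at 1.21 (0.65 to 1.39) and Caprin1, a stress granule protein, at 1.25, but at 0.90 (0.58 to 1.23) when counted in fragments. Both depend on the peaks called: per kb of own peak length they were at 0.13 and 0.11.

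The lowest region of this class lay not at a start but 115 bases past the end of Egr1 (chr18:34865071-34865925), an early response factor that the promoter table lacks. It had 13.5 CPM in PDGFB-NLS, 56.1 in PDGFB-WT and 19.8 in Control (-2.11, -2.53 to -1.64). A region at an end of Ephx2, an epoxide hydrolase that the table lacks too, had 11.5, 31 and 19.1 CPM (-1.49, -1.98 to -0.92). Mfsd8, a lysosomal membrane protein (chr3:40846326-40847254), had 15.9, 41.4 and 46.7 CPM (-1.45, -1.74 to -0.87), where Control lay with PDGFB-WT. Fam107a, an actin-binding gene of astrocytes and radial glia (chr14:8309449-8310365), had 14.8, 32.7 and 15.0 CPM (-1.20, -1.68 to -0.71), where Control lay with PDGFB-NLS. Iqcn was at -1.44 (-1.96 to -1.07), or -0.92 in barcodes of at least 1000 counts, and Fam107a at -0.98 in a second draw of the thinning.

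Highest in gene bodies at this level were regions in Gphn, the scaffold protein of inhibitory synapses (45.4, 8.87 and 49.5 CPM; 2.28, 1.71 to 2.88), Frmd4a (34.2, 9.31 and 25.2; 1.81, 1.28 to 2.46), the mitochondrial tRNA synthetase gene Lars2 (215, 66.8 and 287; 1.62, 1.40 to 1.84) and the cell polarity gene Prickle1 (30.8, 11.5 and 29.5; 1.36, 0.88 to 1.96). Between genes, the highest ratio lay 15.7 kb from Zfp324 (chr7:12949188-12950104), with 77.1 CPM in PDGFB-NLS, 7.42 in PDGFB-WT and 42.3 in Control (3.30, 2.72 to 3.94). With barcodes thinned to 400 fragments each, which left out 732 barcodes of PDGFB-NLS and 3515 of PDGFB-WT, 3.03% of 10264 PDGFB-NLS barcodes held a fragment there and 0.280% of 3926 PDGFB-WT barcodes did. Without thinning the shares were 8.01% and 0.349%. Regions near 4930444G20Rik (1.95), Myl12b, a myosin light chain (54.4, 14.0 and 63.3 CPM; 1.89), Pfkfb3 (given above) and Prex1, a RAC activator (35.6, 11.1 and 26.6; 1.62), followed. Of all compared regions, from 10 CPM, 5 reached a ratio of 2, with Aig1 (2.56), Igf2bp3 (2.23) and Ccrl2 (2.11) beside Zfp324 and Gphn.

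**Figure D5:**
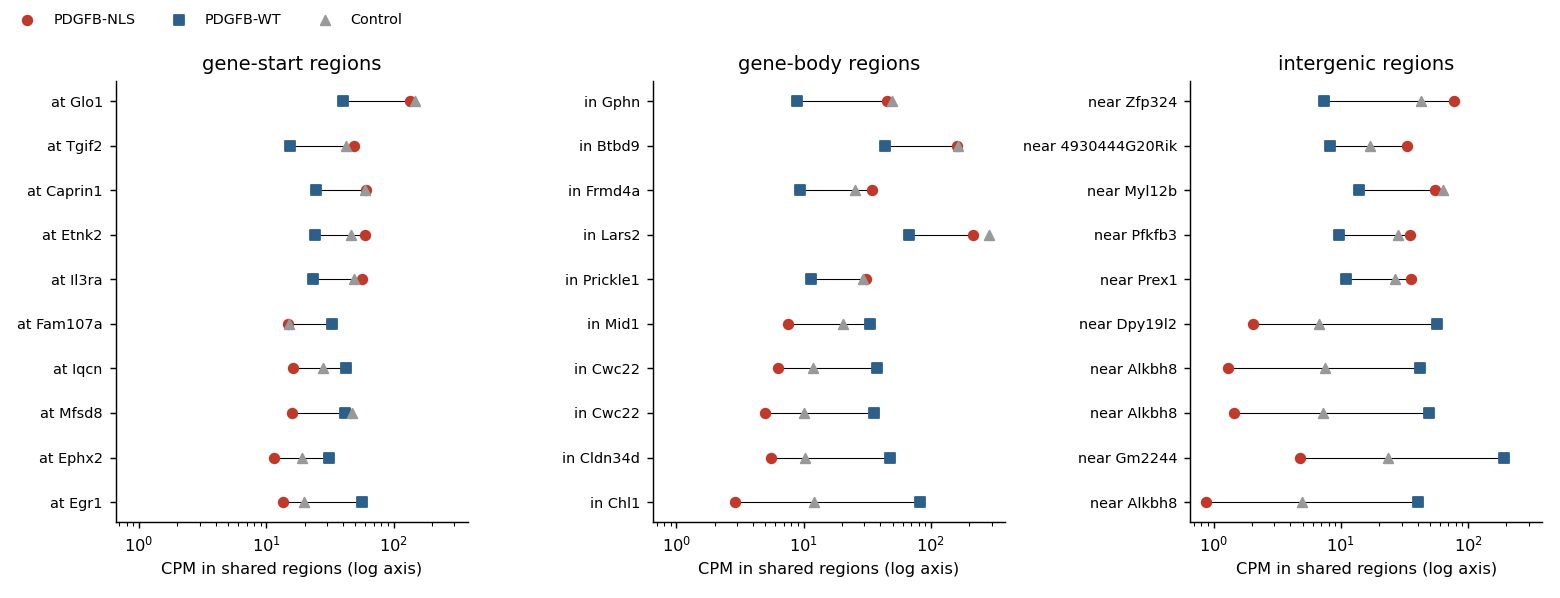
CPM on a log axis of 30 regions, those at either end of the ratios of each class (5 a side, mean of at least 20 CPM), in PDGFB-NLS (circles), PDGFB-WT (squares) and Control (triangles), with a line joining the PDGFB libraries. Control lies near PDGFB-NLS at most of the higher regions, such as 148 CPM beside 134 at Glo1, and between the PDGFB libraries at the lowest intergenic ones.

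At the low end, 48 regions had a ratio of -2 or less, of which 33 were intergenic, 13 in gene bodies and 2 in the gene-start class, those of Egr1 and Kcnj16 (-2.17). They held 0.690% of PDGFB-WT counts, 0.0481% of PDGFB-NLS counts and 0.116% of Control counts. Of these, 19 lay in 4 tight runs. A run of 5 regions on chromosome 2, 98662250 to 98667436, far from any gene (nearest Lrrc4c), had 4464 CPM in PDGFB-WT, 241 in PDGFB-NLS and 640 in Control. A run of 7 on chromosome 9, 2999730 to 3036428, had 235, 6.84 and 32.5 CPM, and a run of 3 on chromosome 14, 19415685 to 19419844, had 330, 12.7 and 41.4 CPM. The fourth run, of 4 regions, lay at the splicing factor gene Cwc22 (120, 18.6 and 33.2 CPM). The first 3 places are among stretches of mm10 commonly masked because reads from repeated DNA pile up there, and the part of such reads in these values was not tested. Single regions of this kind lay in the adhesion gene Chl1 (82.3, 2.91 and 12.1 CPM; -4.85, -5.96 to -3.98), 34.8 kb from Pak3 (232, 10.9 and 35.3 CPM) and 29.0 kb from Rpusd4 (699, 46.8 and 105 CPM), here in the order PDGFB-WT, PDGFB-NLS and Control. The last 2 set the ratios of their loci, which were -3.15 and -2.98 but -0.52 and -0.05 with regions within 20 kb of the gene.

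Barcode depth moved with these 48 regions. In PDGFB-WT they held 1.41% of counts in the 4552 barcodes under 1000 counts and 0.282% in the 2889 deeper ones. In PDGFB-NLS they held 0.151% in 801 shallow barcodes and 0.0497% in 10195 deeper ones. At 400 fragments a barcode, 16.6% (15.9% to 17.3%) of PDGFB-NLS barcodes and 56.0% (54.4% to 57.5%) of PDGFB-WT barcodes held a fragment in the group. The regions were chosen by this same difference, so the shares are a description. Without that thinning the shares were 37.2% and 64.8%.

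Among loci of at least 3 regions, the highest after Glo1 (1.22) and Btbd9 (1.15) were Eng, Gtpbp4 of ribosome assembly (1.09, 0.99 to 1.19), Pdcd1lg2, the immune checkpoint ligand PD-L2 (1.0, 0.57 to 1.42), Nfatc4 (0.96), St6galnac5 (0.94) and LOC115486128, which shares the region of Tgif2 (0.90). Most of the Gtpbp4 value came from an intergenic region with 671, 266 and 705 CPM in PDGFB-NLS, PDGFB-WT and Control. Both compared regions of Pdcd1lg2, 13.3 and 15.2 kb from the gene, were at least 2-fold higher. The lowest after Pak3, Rpusd4 and Chl1 (-2.52) were Gm40035 (-2.27), Nup210l (-1.79), Rab27b (-1.64, -2.25 to -1.20), Dio2, the deiodinase that activates thyroid hormone in astrocytes (-1.61, -2.09 to -1.12), and Olfm4 (-1.58). At Dio2, 13.8 CPM in PDGFB-NLS stood against 40.4 in PDGFB-WT. In barcodes of at least 1000 counts, Chl1 was at -1.23 and Gm40035 at -0.76. The 1 compared region of Chl1 held 566 of the 845 PDGFB-WT counts of the locus and 20 of 154 in thinned PDGFB-NLS. That of Gm40035 held 281 of 451 and 62 of 97. No region of Nup210l, Rab27b or Olfm4 reached 10 CPM alone.

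Promoters of higher and lower gene-start regions differed in base composition. A RefSeq promoter overlapped 8833 of the 11988 compared gene-start regions by at least 150 bases. Median GC content was 62.3% over these, 64.3% for the 44 at least 2-fold higher and 53% for the 35 at least 2-fold lower. The median number of CpG in 300 bases was 22, 20.5 and 9 in the same order. GGGCGG, on either strand, was in 70.7% of all, 63.6% of the higher (28) and 45.7% of the lower (16) promoters, and in 46.2% of all 21263 promoters of the table. Of the sequences printed above, Tgif2 has 72.3% GC, 25 CpG and 5 matches and Fam107a has 49.0% GC, 7 CpG and 2 matches. Glo1, with 49.7% GC and 3 matches, and Mfsd8, with 67% GC and 1 match, lay the other way. The regions also differed in level, with a median of 43.1 CPM over all, 16.5 CPM for the higher and 14.4 CPM for the lower, and the part of level in these shares was not tested. The hypoxia response core ACGTG was in 26.4% of all, 29.5% of the higher and 11.4% of the lower promoters, the E-box CAGCTG in 14.6%, 27.3% and 11.4%, and the SOX motif ACAAAG in 12.6%, 18.2% and 22.9%. With 44 and 35 promoters, a few genes move such shares. Of 18 motifs searched, the AP-1 motif TGANTCA was in 3.84%, 9.09% (4 promoters) and 5.71% (2 promoters).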

How the data were processed

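Chromatin accessibility was measured by single-cell ATAC-seq with the 10x Chromium Next GEM v2 chemistry. The authors deposited a matrix of raw counts per peak and barcode and a peak list for each library, with no normalization. The matrix headers name cellranger-atac 2.1.0, and Cell Ranger 8 and mm10 come from the submitters' processing notes. Most deposited counts are even, as when both ends of a fragment are counted, so fragments are counts halved and rounded up. The labels and headers name no peak caller settings and no rule for calling cells.

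Peaks of chromosomes 1 to 19, X and Y entered the merge, done with Python 3.11.15, numpy 2.4.6, scipy 1.17.1 and pandas 2.3.3. PDGFB-NLS was thinned once at random to the total of PDGFB-WT. Ratios used a pseudocount of 0.5 counts, and intervals are Clopper-Pearson on fragments. A ratio of counts can lie outside its interval of fragments. Genes are the protein-coding genes of a RefSeq table of GRCm38.p6, of which 17492 of 21779 have a start in the promoter table; for the rest, both ends were used. No genome sequence was used, so motifs were searched in promoters alone. TMM factors came from edgeR 4.0.16 in R 4.3.3. The steps were tested on simulated data. Groups came from sample titles. The 6876128 counts of PDGFB-WT in shared regions set the precision of each ratio. Alternatives changed the thinning, the centring, the minimum level, the barcodes, the counting unit, peak length, peak overlap and the window of a locus.

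Named regions are the 5 highest and 5 lowest of each class with a mean of at least 20 CPM, named loci the 8 highest and 8 lowest of at least 3 regions, the 2 highest and lowest of each list, and 8 fixed genes. Genes named beyond this rule were chosen after their values were seen. The members, lists and rules were chosen with earlier results of these data known. Lists that are named but not described were HOX genes (2 compared loci). Some listed genes are not reported here.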

Additional observations from a re-analysis of the deposited data

How the results depend on the processing

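No paired analysis was possible because each group is 1 library, and no replicate could be left out. The counts of called features depended on the minimum level and on barcode depth. At a mean of at least 5 CPM, with no minimum, at 20 CPM and with barcodes of at least 1000 counts, the regions higher in PDGFB-NLS numbered 956, 1320, 56 and 754, and the regions lower in PDGFB-NLS 3086, 5112, 175 and 1594. Under the same settings the loci higher in PDGFB-NLS numbered 632, 1055, 62 and 377, and the loci lower in PDGFB-NLS 878 with no minimum. The higher share of called loci was 52.8% at 5 CPM, 54.6% with no minimum and 14.1% at 20 CPM, where the median taken off was -0.04, -0.11 and 0.11 in place of 0.06. The median of gene-start regions was 0.14 with the all-region median not taken off, 0.17 at 5 CPM, 0.24 with no minimum, 0.033 at 20 CPM, 0.072 with barcodes of at least 1000 counts and 0.072 per kb of own peak length. That of gene-body regions was -0.10 in a second draw of the thinning, -0.048 with the median not taken off, -0.14 at 5 CPM and -0.15 with no minimum. That of intergenic regions was -0.13 without thinning, -0.13 in a second draw, -0.055 with the median not taken off, -0.14 at 5 CPM, -0.17 with no minimum, -0.15 at 20 CPM and -0.14 with barcodes of at least 1000 counts. Among the loci named by rule, Ncapd3 was the 1 called locus that changed sign, to 0.050 per kb of own peak length. In all these cases the cause was not tested. List medians ran from -0.68 to -0.35 for astrocyte, -0.34 to -0.08 for OPC, -0.52 to -0.12 for adhesion and -0.48 to -0.11 for synapse loci over 15 alternatives. TMM factors, fragments, counts capped at 1, the 1% deepest barcodes left out, peaks overlapping by 50% and regions with a Control peak kept each count of regions within 1.5 times. Il3ra and Caprin1 were at 0.13 and 0.11 per kb of own peak length. With no minimum, Tnr was at -0.54, Fezf2 at -0.53, Mrc1 at -0.42, Tgfb2 at -0.49 and Nuf2 at -0.43, inside 1.5-fold. Depth limits single regions near 10 CPM, as the interval at the start of Dscam shows (-1.81 to -0.44), and the spread between animals is not measured.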

Other observations

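Shared regions were also grouped in 1963 windows of 500 kb with at least 5 compared regions, a grouping chosen after the data were seen. The windows' median ratios had 5th and 95th percentiles of -0.42 and 0.25. Apart from the runs of very low regions, the lowest windows held Zfp608 (-1.13), the glutamate receptor gene Grm3 (-1.09), the distal regions of the stem cell factor gene Sox2 with Atp11b (-0.98, all 6 regions under 0), Tbl1xr1 (-0.96, all 7), Myt1l with Pxdn (-0.94), Ntm (-0.90, all 8), Mgat5 (-0.87) and Spry2 with Ndfip2 (-0.87, all 8). The highest held Zw10, a kinetochore gene, with Tmprss5 and Ttc12 (0.59, all 5 regions above 0), Bnip3 and its neighbors (0.55), Cdk6, the kinase of the G1 phase (0.52, all 5), and Runx1 with Clic6 (0.48, all 5).

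Whole chromosomes lay close together. The log2 ratio of summed shared regions ran from -0.19 on X to 0.03 on chromosome 17, and chromosome 14 was next lowest at -0.13. X held 466 compared regions, with a median ratio of -0.06. The part of copy number or sex in these values was not tested.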
